A study of Mus musculus with 12 samples.

Results

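The genes described here encode the proteins of the mitochondrial ribosome. They were taken as every gene whose name in the array files is Mrpl or Mrps followed by a number and at most 1 letter. The rule gave 76 genes, read by 106 probes, of 34844 gene names and 55681 probes on the array. For all 76 genes the probe used read well above background on each of the 12 arrays. Total RNA was profiled on 1-colour Agilent arrays in 4 groups of 3 samples. RAW control was RAW264.7, a mouse macrophage-like cell line, transfected with the vector PLKO. RAW knockdown was the same line transfected with an shRNA against Abhd5, which encodes an activator of triglyceride breakdown. CT26 control-primed and CT26 knockdown-primed were cells of the mouse colon carcinoma line CT-26 after priming by RAW cells or by Abhd5-knockdown RAW cells. Whether the priming RAW cells of the former group carried PLKO is not in the labels. The labels do not give the form of the priming, the time, how the lines were separated, or whether replicates were grown as separate cultures, so all p-values measure only the spread between these samples.

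The mitochondrial ribosome is assembled inside mitochondria from ribosomal RNAs encoded by mitochondrial DNA and from proteins encoded in the nucleus, made in the cytosol and imported. It translates the few mRNAs of mitochondrial DNA, all of which encode subunits of the respiratory chain and ATP synthase. Its large subunit holds the peptidyl transferase centre and its small subunit decodes the mRNA. Many of its proteins have bacterial counterparts, and others are found only in mitochondria. Macrophages shift between respiration and glycolysis with their activation state.

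The standing probes of the 76 genes lay on 17 chromosomes. By known position in the ribosome, 49 of the genes encode large-subunit proteins, which include Mrps30 and Mrps18a despite their names, and 26 encode small-subunit proteins. Mrps36 was kept apart, since its product is now known as a component of the 2-oxoglutarate dehydrogenase complex. Levels are given as the log2 processed signal of a gene's brightest probe minus the 75th percentile of its array. They were compared between samples for the same probe only. A gene was called where limma's test gave a Benjamini-Hochberg adjusted p under 0.05 over all genes tested. Every comparison was also made after quantile normalisation, which sets all arrays to the same distribution.

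Promoter sequences are shown for 4 genes with large falls in RAW264.7 cells below. They set the genes beside the motifs of factors known to act on nuclear genes for mitochondrial proteins. The 4 genes were picked by hand and not by rank, and each holds a match. No match was found for Mrps35 or Mrpl23, which fell more than Mrpl34. Windows from 250 bases before to 50 bases after the annotated start (RefSeq, GRCm38.p6) were found for 67 of the 76 genes. Each stretch below runs 5′ to 3′ on the gene's strand from 170 bases before the start through 30 bases from it, with matches in capitals. In Mrps9 (chr1:42851063-42851262, plus strand) the capitals mark the NRF1 motif.
Mrps9: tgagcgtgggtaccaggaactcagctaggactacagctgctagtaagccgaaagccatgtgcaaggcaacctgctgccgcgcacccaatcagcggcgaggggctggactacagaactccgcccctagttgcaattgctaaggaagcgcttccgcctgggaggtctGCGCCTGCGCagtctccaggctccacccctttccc
In Mrps27 (chr13:99344616-99344815, plus strand) they mark an ETS motif on the reverse strand and then a YY1 motif.
Mrps27: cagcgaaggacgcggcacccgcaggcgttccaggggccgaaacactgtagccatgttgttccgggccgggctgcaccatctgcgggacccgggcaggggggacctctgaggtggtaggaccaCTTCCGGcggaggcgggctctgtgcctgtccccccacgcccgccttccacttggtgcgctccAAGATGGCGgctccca
In Mrpl36 (chr13:73330839-73331038, plus strand) they mark an E-box and then a YY1 motif on the reverse strand.
Mrpl36: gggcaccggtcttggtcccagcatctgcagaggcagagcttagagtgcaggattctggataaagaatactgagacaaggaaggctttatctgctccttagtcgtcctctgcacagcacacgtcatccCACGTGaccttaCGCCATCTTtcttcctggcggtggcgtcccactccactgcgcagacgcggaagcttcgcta
In Mrpl34 (chr8:71464756-71464955, plus strand) they mark an ETS motif.
Mrpl34: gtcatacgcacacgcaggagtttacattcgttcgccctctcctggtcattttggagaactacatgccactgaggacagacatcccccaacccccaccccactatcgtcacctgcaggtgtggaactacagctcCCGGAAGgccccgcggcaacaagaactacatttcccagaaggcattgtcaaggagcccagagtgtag

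The motifs were searched on both strands of the whole window. The ETS motif CCGGAAG, bound by GABP among other ETS factors, stood in 24 of the 67 genes (35.8%) and in 9.93% of 27025 genes in the promoter table. The NRF1 motif, of the nuclear respiratory factor, stood in 12 genes (17.9%) against 5.19% of all. The YY1 motif AAGATGGCG stood in 8 genes (11.9%) against 1.64% of all. The E-box CACGTG, bound by Myc and other basic helix-loop-helix factors, stood in 5 genes (7.46%) against 8.09% of all. At least 1 of the 4 motifs was present in 41 of the 67 genes (61.2%) and in 21.3% of all genes. In 61 cytosolic ribosomal protein genes of the table the ETS motif was found in 41% and the NRF1 motif in 8.2%. No test was made of these shares, and a match is not evidence of binding.

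The knockdown was read first through its target. Abhd5 stood at log2 levels of 1.38, 1.93 and 1.52 in RAW control and 0.25, 0.23 and 0.39 in RAW knockdown. The groups did not overlap, and the gene was lower by a log2 difference of -1.32 ± 0.20 (SE, adjusted p = 0.00346 by limma). In CT-26 the difference was 0.07 ± 0.15 (adjusted p = 0.776). The arrays differed in other ways. The share of spots well above background was 56.5% and 57.9% in RAW control replicates 1 and 2, which shared slide 1, and from 69% to 73% in the other 4 RAW arrays, which shared slide 2. All CT-26 arrays were on slide 3, with 68.3% to 77.3% in CT26 control-primed and 59.3% to 67% in CT26 knockdown-primed. Of 10 macrophage markers, 10 were well above background on all 3 RAW control arrays, 8 on all 3 CT26 control-primed arrays and 7 on all 3 CT26 knockdown-primed arrays. Their mean log2 level was 3.41 to 3.57 over the RAW control arrays, 4.04 to 4.24 over the RAW knockdown arrays, and -2.46 to -1.93 over all CT-26 arrays, where Emr1 (F4/80) was well above background on no array. With the knockdown in RAW264.7 cells 3 of the 10 markers rose and 0 fell by limma, Emr1 from a mean of 0.46 to 3.32, Fcgr3 from 0.56 to 3.48 and Lyz2 (lysozyme) from 3.66 to 5.54, and Cd14 (0.72) was called as well after quantile normalisation. In CT-26 cells 1 of 8 tested fell with knockdown priming, Cd68 by 0.83 on the log2 scale (adjusted p = 0.0208 by limma). The part of these shifts in the results below was not tested. Itgam (CD11b) read high in both lines, at a mean of 6.24 in RAW control and 5.60 in CT26 control-primed. Of 6 epithelial markers tested between the control arms, 3 were lower in RAW264.7 cells (Krt18, Krt8 and Krt19), 1 was higher (Krt7, 0.56) and 2 were not called. Krt18 read 2.43 in CT26 control-primed and -3.30 in RAW control, while Cdh1 (E-cadherin) was above background on no CT-26 array.

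In RAW264.7 cells, 22 of the 76 genes (28.9%) fell with Abhd5 knockdown and 0 rose by limma. Over all 25328 genes tested, 14.9% fell and 7.93% rose at the same adjusted cut. At an unadjusted p under 0.05, 44 of the 76 genes were lower and 0 higher. Of 74 oxidative phosphorylation subunits 46 were then lower and 0 higher. No share of all genes was computed at the unadjusted cut, here or below. Counts at that cut therefore do not show that these genes differ from others. The median log2 change of the 76 genes was -0.45, with a range from -0.92 to 0.30, beside -0.30 for all genes tested. In 55 of the 76 genes the change was under 1.5-fold either way. Falls were found in both subunits, in 10 of 49 large-subunit genes and 12 of 26 small-subunit genes. The difference between the subunits was not tested.

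The small-subunit genes Mrps9, Mrps35 and Mrps27 had the largest falls. Mrps9 encodes the mitochondrial counterpart of bacterial protein S9. Its probe (mm9 chromosome 1, 42956365 to 42960169) read 4.09, 4.32 and 4.04 in RAW control and 3.39, 3.24 and 3.06 in RAW knockdown. Every knockdown array was below every control array, and the change was -0.92 ± 0.18 (SE, n = 3 per group), or 1.89-fold lower, with an adjusted p of 0.0123 by limma. Mrps35 and Mrps27 encode small-subunit proteins found only in mitochondria. Mrps35 (mm9 chromosome 6, 147009999 to 147019119) read 3.91, 3.96 and 4.11 in RAW control and 3.34, 3.02 and 2.96 in RAW knockdown, a change of -0.89 ± 0.18 (adjusted p = 0.0146 by limma). Mrps27 (mm9 chromosome 13, 100185032 to 100185091) read 1.75, 2.0 and 1.69 in RAW control and 1.13, 0.90 and 0.80 in RAW knockdown, a change of -0.87 ± 0.18 (adjusted p = 0.0159 by limma). Neither gene had an overlap between the groups.

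These 3 genes, and no other of the 76, were also called after quantile normalisation. Their changes were then -0.61 for Mrps9, -0.60 for Mrps35 and -0.82 for Mrps27 (adjusted p = 0.0332, 0.0425 and 0.0186 by limma), and 3 of 76 is 3.95%, beside 7.51% of all genes lower and 8.67% higher under that scaling. In CT-26 cells the same 3 genes had log2 changes of 0.23, 0.08 and -0.15, none of which passed the test.

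Next in size came Mrpl36, the counterpart of the small zinc-binding bacterial protein L36. It read 4.30, 4.48 and 4.45 in RAW control and 3.71, 3.44 and 3.56 in RAW knockdown, with no overlap and a change of -0.84 ± 0.17 (adjusted p = 0.0141 by limma). Mrpl23, the counterpart of a protein at the exit of the peptide tunnel, read 5.32, 5.95 and 5.15 in RAW control and 4.67, 4.73 and 4.63 in RAW knockdown. The second control array was the highest, and the change was -0.80 ± 0.23 (adjusted p = 0.0429 by limma). Mrps24 (-0.78), Mrpl48 (-0.74) and Mrpl34 (-0.74) completed the 8 largest falls, and their groups did not overlap either. Mrps24 is the counterpart of bacterial S3 at the mRNA entry site, and Mrpl48 is found only in mitochondria.

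The groups did not overlap in 61 of the 76 genes, beside 52.1% of all genes tested. In 4 genes the change was above 0: Mrpl28 (0.30), Mrpl35 (0.17), Mrpl9 (0.15) and Mrpl13 (0.06), none of which passed the test. Of these 4 genes, Mrpl28 varied most among the RAW control arrays, at 2.96, 3.50 and 4.06.

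**Figure D1:**
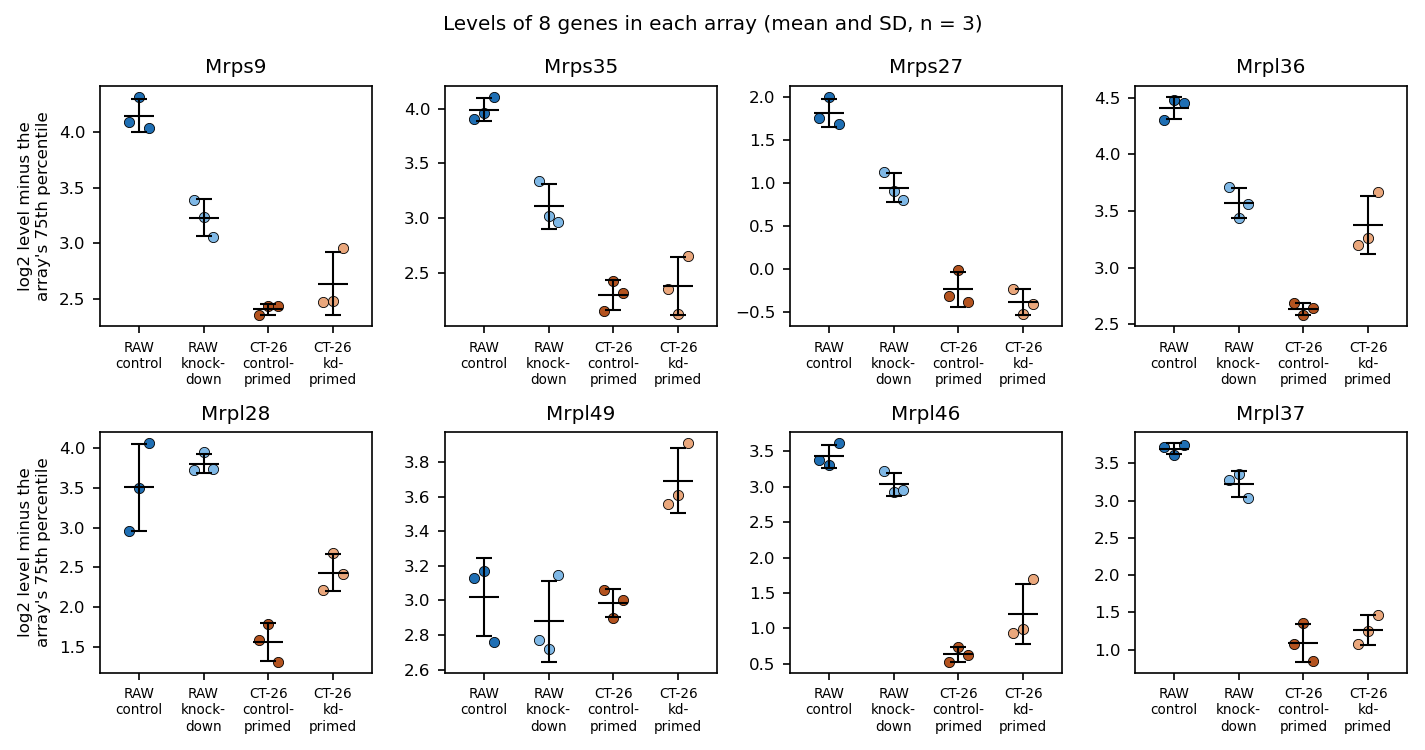
Log2 level minus the array's 75th percentile (vertical axis) of 8 genes in each of the 12 arrays, by group (points), with the mean and SD of 3 samples (bars). Mrps9, Mrps35, Mrps27 and Mrpl36 are lower in every RAW knockdown array than in every RAW control array, Mrpl36, Mrpl28 and Mrpl49 are higher in every CT26 knockdown-primed array than in every CT26 control-primed array, and Mrpl46 and Mrpl37 differ mainly between the cell lines.

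The falls in RAW264.7 cells depended on the slide and on single arrays for their calls. With the slide as a block, 0 of the 76 genes were called by limma and 19 were lower at an unadjusted p under 0.05. The median change was -0.44, and 1.07% of all genes fell. Within slide 2, RAW control replicate 3 stood alone against the 3 knockdown arrays, so no spread of the control arm enters there. The median of the 76 genes was then -0.44, beside -0.25 for all genes tested. Mrps9 changed by -0.81 on that slide, Mrps35 by -1.01 and Mrps27 by -0.75. The count of lower genes was 9 without RAW control replicate 1 (11.8%, beside 5.51% of all genes). Without RAW knockdown replicate 1 it was 4 (5.26%), near the 4.91% of all genes. It was 0 without RAW knockdown replicate 2 or without replicate 3, beside 3.22% and 2.35% of all genes. The median stayed between -0.51 and -0.40. At an unadjusted p under 0.05, 25 and 21 genes were lower in the last 2 cases.

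The size of the shared shift moved with the scaling. Quantile normalisation moved the median of all genes tested from -0.30 to -0.08 and that of the 76 genes from -0.45 to -0.12. Relative to all genes, the 76 genes were thus lower by a median of -0.14 in the first scaling and -0.03 in the second. Cytosolic ribosomal protein genes had a median of -0.51, and -0.03 after quantile normalisation, with 9 of 80 lower and 1 higher in the first and 1 lower and 0 higher in the second. Oxidative phosphorylation subunits, the partners of the proteins that mitochondrial ribosomes make, had medians of -0.50 and -0.07, with 19 of 74 lower and 0 higher in the first and 0 called in the second.

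In CT-26 cells, 6 of the 76 genes rose when the cells had been primed by knockdown RAW cells, and 0 fell by limma, with 37 and 0 at an unadjusted p under 0.05. Of all 24848 genes tested, 3.14% rose and 3.18% fell, so 7.89% of these genes were called higher. The median log2 change was 0.41, from -0.33 to 0.87, beside 0.11 for all genes. Of the 76 changes 69 were above 0, beside 15045 of all 24848. After quantile normalisation 0 genes rose and 0 fell by limma (22 and 0 at an unadjusted p under 0.05), beside 2.39% and 2.55% of all genes, with a median of 0.20 beside 0.05. The groups did not overlap in 47 of the 76 genes, beside 36.2% of all genes.

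Mrpl28, the counterpart of bacterial L28, had the largest rise. Its probe (mm9 chromosome 17, 26261526 to 26261585) read 1.59, 1.79 and 1.31 in CT26 control-primed and 2.21, 2.68 and 2.41 in CT26 knockdown-primed, a change of 0.87 ± 0.19 (SE, n = 3 per group, adjusted p = 0.0341 by limma). Mrpl36, which fell in RAW264.7 cells, read 2.69, 2.58 and 2.64 in CT26 control-primed and 3.20, 3.26 and 3.67 in CT26 knockdown-primed. The arrays of each group lay apart and the change was 0.74 ± 0.17 (adjusted p = 0.0403 by limma). It was the only gene of the 76 called in both lines. Mrpl49, a large-subunit protein found only in mitochondria, read 3.06, 2.90 and 3.0 against 3.56, 3.61 and 3.91, a change of 0.71 ± 0.16 (adjusted p = 0.0381 by limma). The second probe of Mrpl49 did not share this rise, at 0.18 (adjusted p = 0.598 by limma over all probes).

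Mrps36 (0.69), Mrpl55 (0.67) and Mrps11 (0.64) also rose. The last is the counterpart of S11, which lines the platform of the small subunit. Their adjusted p-values by limma were 0.0423, 0.0481 and 0.0425, and after quantile normalisation 0.0915, 0.0992 and 0.0673. Their groups did not overlap. The third CT26 knockdown-primed array had the highest level of its line in 63 of the 76 genes, and it had the smallest share of spots well above background on any CT-26 array, 59.3%. The part of that share in the result was not tested. In RNA from whole samples, fewer cells of a type and less RNA per cell cannot be told apart. The count of higher genes was 18 without the first CT26 knockdown-primed array (23.7%, beside 7.18% of all genes). It was 0 without replicate 2 or 3 of that group, beside 0.72% and 0.278% of all genes. Without the first CT26 control-primed array it was 1 (1.32%, beside 2.37%). Without CT26 control-primed replicate 2 or 3 it was 0, beside 0.25% and 0.125%. The median of the 76 changes was 0.31 without the third knockdown-primed array. In RAW264.7 cells the second control array was highest in 48 genes and the third knockdown array lowest in 40.

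**Figure D2:**
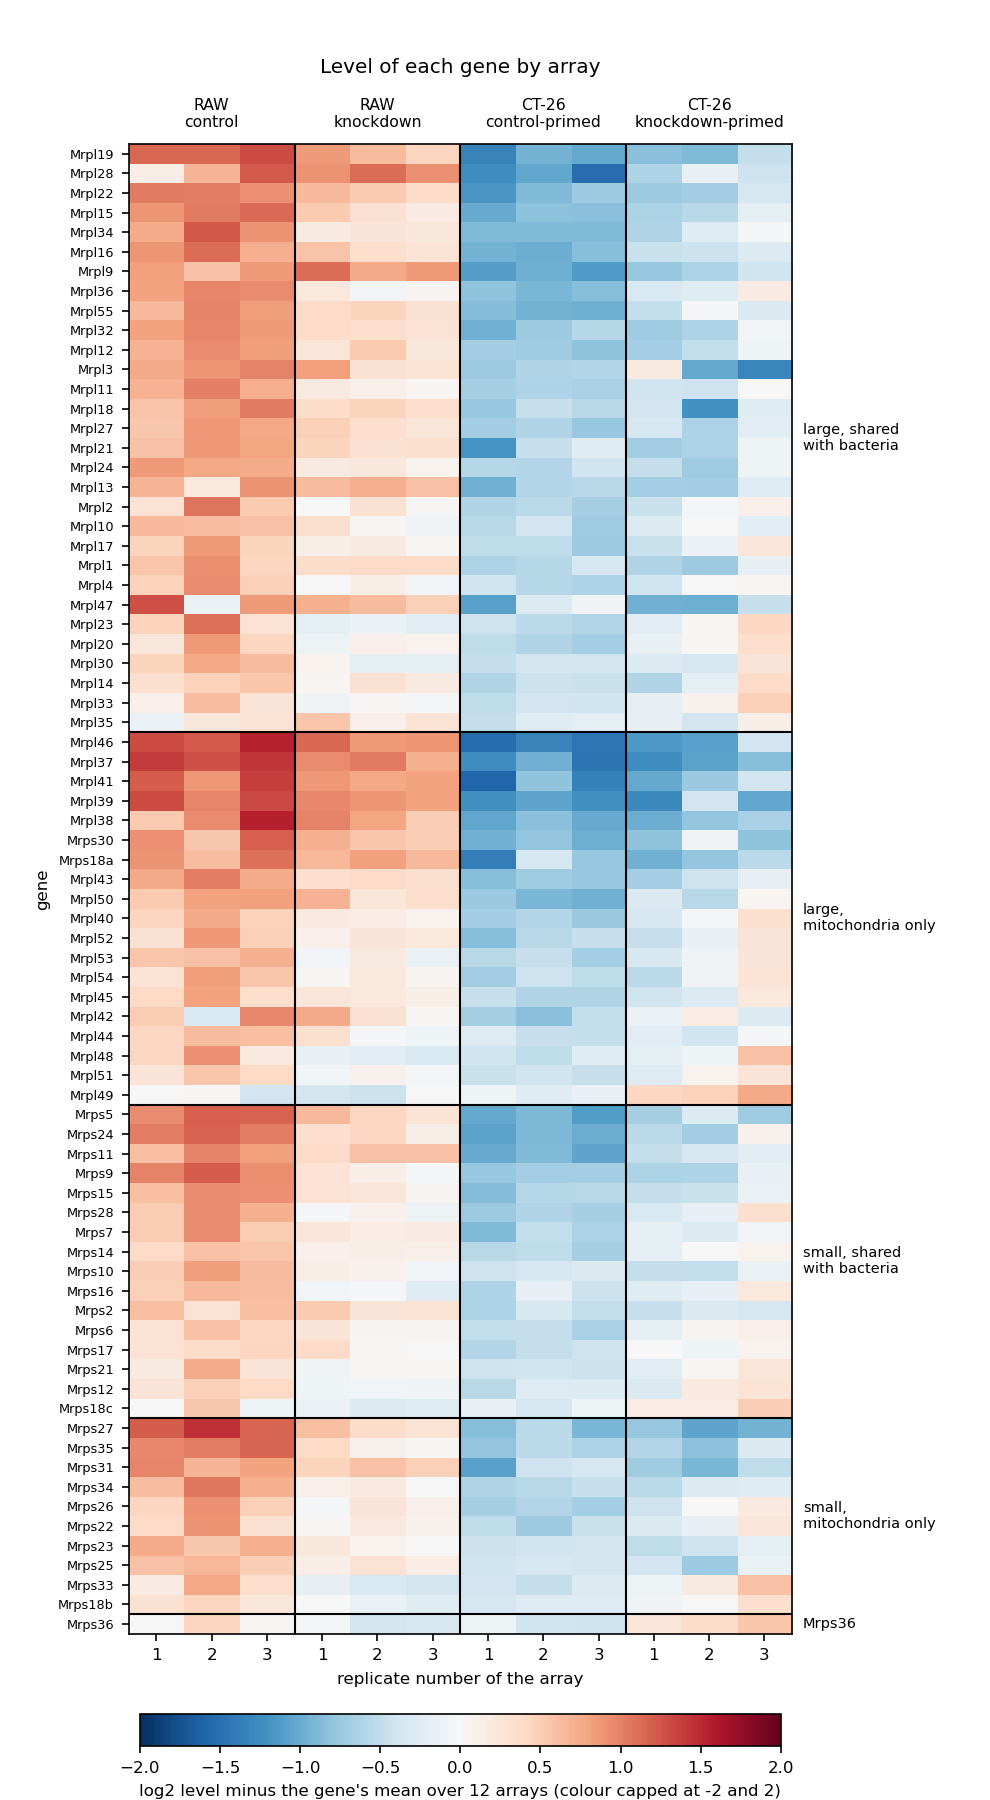
Log2 level of each of the 76 genes (vertical axis, ordered by ribosomal subunit and by the difference between the cell lines) in each array (horizontal axis, replicate numbers within 4 groups), shown as the difference from the gene's mean over 12 arrays. Most genes are highest in RAW control and lowest in CT26 control-primed, and the third CT26 knockdown-primed array is the highest of its line in 63 genes.

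The changes in the 2 lines were then set against each other, with no samples in common. The difference between them, the change in RAW264.7 minus the change in CT-26, was called lower by limma in 54 of the 76 genes (71.1%) and higher in 0 (58 and 0 at an unadjusted p under 0.05). Of all 26918 genes tested, 24% were lower and 7.44% higher. The median was -0.87 for the 76 genes and -0.39 for all genes. After quantile normalisation 12 of the 76 genes (15.8%) were lower and 0 higher, beside 14.4% and 10.2% of all genes, with medians of -0.32 and -0.10. The call covered 31 of 49 large-subunit genes and 22 of 26 small-subunit genes. Of the 54 genes, 29 were called in neither line on its own.

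Mrpl36 differed most between the lines, by -1.58 ± 0.23 (adjusted p = 9.05e-04 by limma), followed by Mrps24 (-1.40), Mrpl23 (-1.37), Mrps28 (-1.34) and Mrpl34 (-1.32). All 5 remained past the threshold after quantile normalisation, at -1.06, -0.89, -0.65, -0.71 and -0.76. With the slide as a block, 10 of the 76 genes were called lower and 4 of these 5 remained, Mrpl23 being the exception at -1.04 (adjusted p = 0.0851 by limma). Mrps28, a small-subunit protein, read 4.67, 5.11 and 4.88 in RAW control and 4.15, 4.26 and 4.07 in RAW knockdown, and in CT-26 3.44, 3.56 and 3.51 against 3.87, 4.01 and 4.48. For Mrps28 the RAW knockdown arrays lay below all RAW control arrays, and the CT26 knockdown-primed arrays lay above all CT26 control-primed arrays.

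Of the 76 genes, 65 had a change below 0 in RAW264.7 and above 0 in CT-26, 7 were below 0 in both and 4 above 0 in both. After quantile normalisation these counts were 49, 12 and 13. Across the 76 genes the sizes of the 2 changes had a Spearman coefficient of -0.03 and a Pearson coefficient of 0.00, and 0.03 and 0.14 after quantile normalisation. Genes read on the same arrays are not independent replicates, so these coefficients are descriptions without a test.

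**Figure D3:**
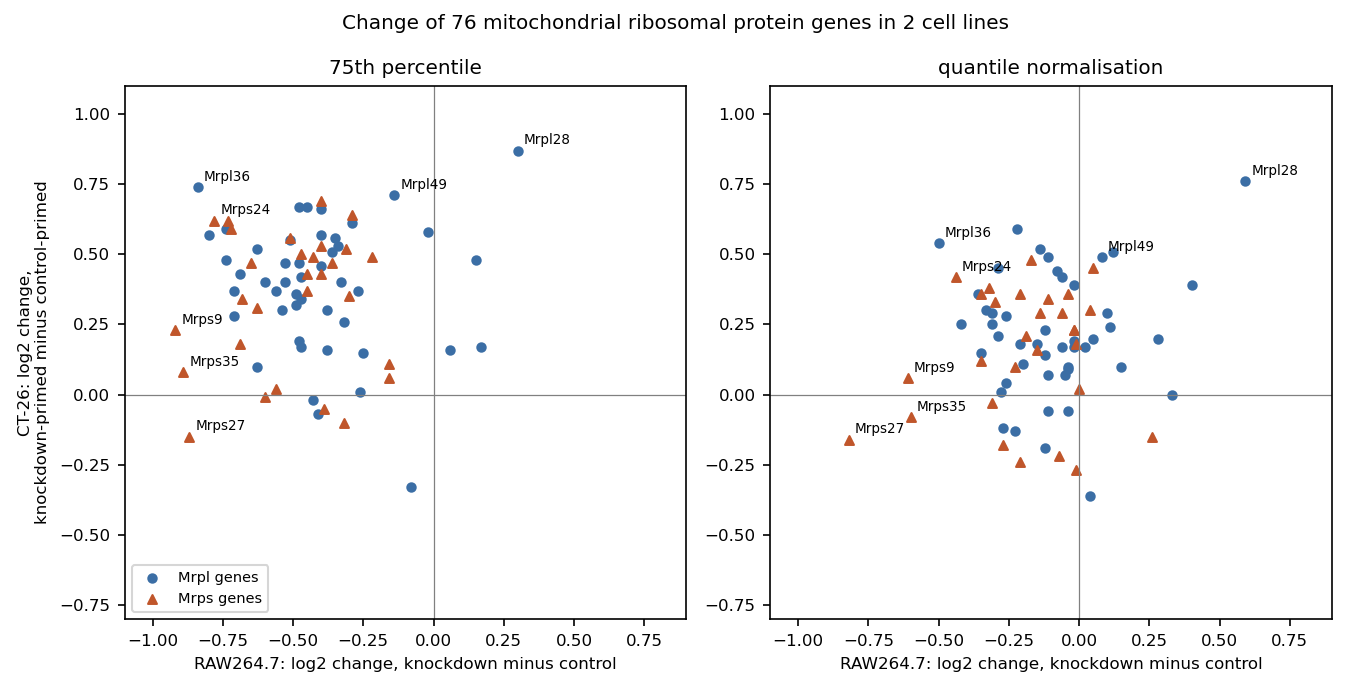
Log2 change with Abhd5 knockdown in RAW264.7 cells (horizontal axis) against the log2 change of primed CT-26 cells (vertical axis) for 76 genes, Mrpl genes as circles and Mrps genes as triangles, scaled by the 75th percentile (left) and by quantile normalisation (right). With the 75th percentile, 65 genes lie above and to the left of the zero lines, and with quantile normalisation 49.

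Between the control arms, the genes of the mitochondrial ribosome were higher in RAW control than in CT26 control-primed in 72 of 76 cases (94.7%), and 0 were lower by limma (74 and 0 at an unadjusted p under 0.05). Of all 25438 genes tested, 42.3% were higher and 25.3% lower. The median log2 difference was 1.27 for the 76 genes and 0.41 for all genes. After quantile normalisation 50 of the 76 genes (65.8%) were higher, beside 36.8% of all genes, and 1 was lower, Mrpl49 at -0.62 (adjusted p = 0.0163 by limma), beside 27.9% of all genes. The medians were then 0.67 and 0.17. Line, priming and slide cannot be told apart here. The groups did not overlap in 74 of the 76 genes, beside 74.6% of all genes.

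Large-subunit genes held the 5 largest differences. Mrpl46, found only in mitochondria, read 3.38, 3.30 and 3.61 in RAW control and 0.53, 0.74 and 0.63 in CT26 control-primed (mm9 chromosome 7, 85925385 to 85925444). The groups lay far apart, and the difference of 2.80 ± 0.17 (SE, n = 3 per group) was 6.97-fold (adjusted p = 4.39e-06 by limma). Mrpl37, which also has no bacterial counterpart, read 3.72, 3.61 and 3.75 against 1.07, 1.36 and 0.85, a difference of 2.60. Mrpl41 (2.40), Mrpl39 (2.37), Mrpl19 (2.30) and, in the small subunit, Mrps5 (2.12) followed. All 6 remained past the threshold in every alternative run with at least 2 arrays in each arm and 1 value per gene, including quantile normalisation and the knockdown arms. With RAW control replicate 3 as the only RAW array, the differences ran from 2.20 for Mrps5 to 2.98 for Mrpl46, and no spread of the RAW arm enters there.

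By subunit, 47 of 49 large-subunit and 25 of 26 small-subunit genes were higher in RAW control, with medians of 1.37 and 1.08. The 4 genes not called were Mrpl49 (0.03), Mrpl35 (0.44), Mrps18c (0.35) and Mrps36 (0.47). In the knockdown arms, RAW knockdown against CT26 knockdown-primed, the difference was smaller. There 39 of the 76 genes were higher and 3 lower, the 3 being Mrpl49 (-0.82), Mrps36 (-0.63) and Mrps18c (-0.48), with a median of 0.46 beside -0.02 for all genes, of which 29.2% were higher and 30.3% lower.

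**Figure D4:**
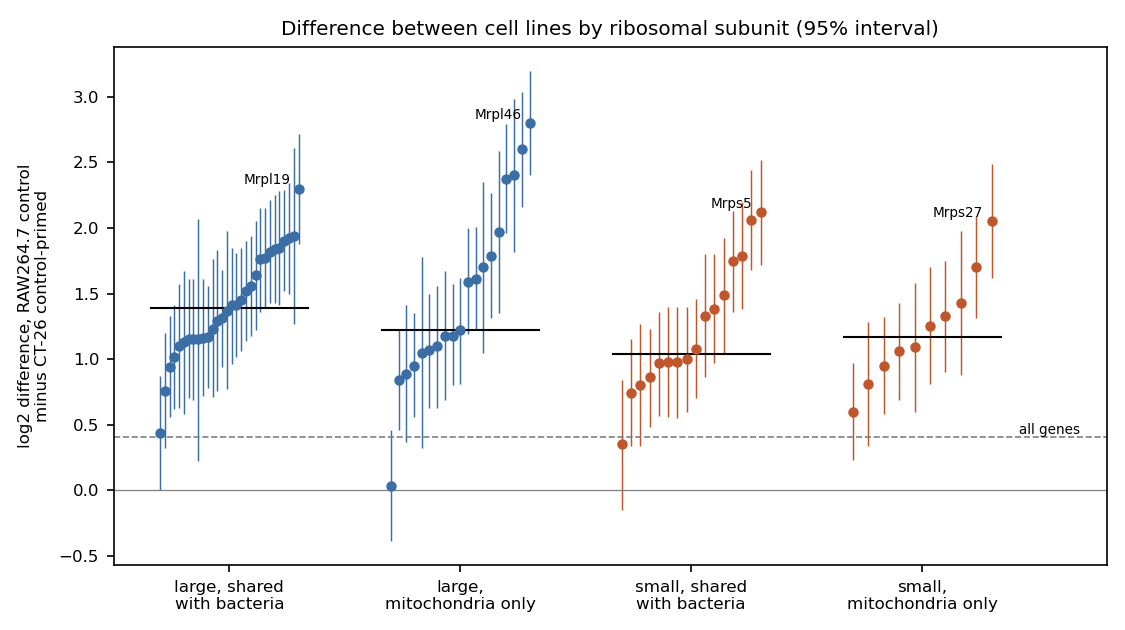
Log2 difference, RAW control minus CT26 control-primed (vertical axis), of each gene with its 95% interval, by subunit and by whether the protein has a bacterial counterpart (horizontal axis). Black lines are group medians and the dashed line is the median of all genes tested, 0.41, below which lie only Mrpl49 and Mrps18c. Mrps36 is not drawn.

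Several genes had probes that disagreed. Of 25 genes with several probes tested between the lines, 21 had all probes in the same direction and 2 had probes called in opposite directions. In Mrps25 the standing probe (mm9 chromosome 6, 92124834 to 92124893) differed by 0.95 and the second (92119530 to 92119589) by -3.95. In Mrpl39 the standing probe differed by 2.37 and the second, above background in 1 group only, by -0.88. The second probe of Mrpl49 gave 2.40 where the standing probe gave 0.03, and that of Mrpl41 gave -0.09 where the standing probe gave 2.40. In RAW264.7 cells the second probe of Mrpl9 rose by 1.11 (adjusted p = 0.0186 by limma over all probes) where the standing probe changed by 0.15. No gene had opposite calls with the knockdown in RAW264.7 cells or with knockdown priming in CT-26 cells, where few probes were called. All probes of a gene had the same direction in 20 of 24 genes in RAW264.7 cells and 19 of 25 in CT-26 cells.

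Other genes of mitochondrial translation followed in the lists below. Their counts, here and in the following paragraphs, are to be read beside the shares of all genes tested. In RAW264.7 cells 14.9% fell and 7.93% rose, and 7.51% and 8.67% after quantile normalisation. The shares in CT-26 cells were 3.18% and 3.14%, and 2.55% and 2.39% after quantile normalisation. No list was tested as a whole. Among 6 ribosomal subunit genes that the naming rule leaves out, Chchd1 fell in RAW264.7 cells (-0.76), and Gadd45gip1 rose in CT-26 cells (0.71). Of 24 genes for ribosome assembly and rRNA modification, 7 fell and 0 rose in RAW264.7 cells, led by Rpusd4, a pseudouridine synthase (-1.09 ± 0.19), Mpv17l2 (-0.86) and Rpusd3 (-0.99). After quantile normalisation 2 fell, Rpusd4 and Rpusd3, and 1 rose, Mterfd1 (0.63), which is named here after its value was seen. In CT-26 cells 2 rose and 0 fell, Ftsj2 (0.77), a methyltransferase of the large ribosomal RNA, and Gtpbp5 (0.66), and 1 rose after quantile normalisation. Of 14 translation factors, 3 fell in RAW264.7 cells and none rose, namely the release factor Mtrf1 (-1.41 ± 0.20), the membrane insertase Oxa1l (-0.97) and the elongation factor Tsfm (-0.75), the last of which was not called after quantile normalisation. In CT-26 cells 0 of 14 were called by limma in either direction, and 3 were higher at an unadjusted p under 0.05. The smallest p-values there were those of the elongation factor Tufm (0.65), Mrrf (0.59) and Oxa1l (0.37).

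Mitochondrial aminoacyl-tRNA synthetases charge the tRNAs used in mitochondria. In RAW264.7 cells 6 of 19 fell and 0 rose, and 3 fell after quantile normalisation, with a median of -0.47, and -0.40 after quantile normalisation. Sars2 changed by -1.51 ± 0.17 (adjusted p = 6.85e-04 by limma), Wars2 by -1.43 and Vars2 by -1.38, and all 3 remained called after quantile normalisation, at -1.48, -1.42 and -1.34. In CT-26 cells 3 of 18 rose, Pars2 (0.80), Mars2 (0.77) and Yars2 (0.64), and all 3 were called after quantile normalisation too. Among regulators of mitochondrial transcription and biogenesis, 2 of 16 rose and 3 fell in RAW264.7 cells, where 7.93% of all genes rose and 14.9% fell, so the list was called at shares near those of all genes. Myc, a transcription factor that binds E-boxes, rose by 2.82 ± 0.30, and Gabpa, a subunit of the ETS factor GABP, by 0.70. Polg2, of the mitochondrial DNA polymerase, changed by -0.83 and Polrmt, the mitochondrial RNA polymerase, by -0.69. Gabpa and Polrmt are named here after their values were seen. Nrf1, the factor that binds the NRF1 motif, fell by 1.26 on the log2 scale with an SE of 0.24 (adjusted p = 0.0096 by limma), and it remained called after quantile normalisation at -1.12.

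In CT-26 cells 1 of 17 regulators was called, Ppargc1a, a coactivator of mitochondrial biogenesis, at -1.61 (adjusted p = 0.00645 by limma). The motifs were then set beside the changes in RAW264.7 cells, with no test. The median was -0.48 in the 12 genes with the NRF1 motif and -0.43 in the 55 without it, and -0.45 in the 24 with the ETS motif and -0.40 in the 43 without it. In CT-26 cells the medians were 0.34 and 0.47 for the NRF1 motif and 0.43 and 0.47 for the ETS motif.

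**Figure D5:**
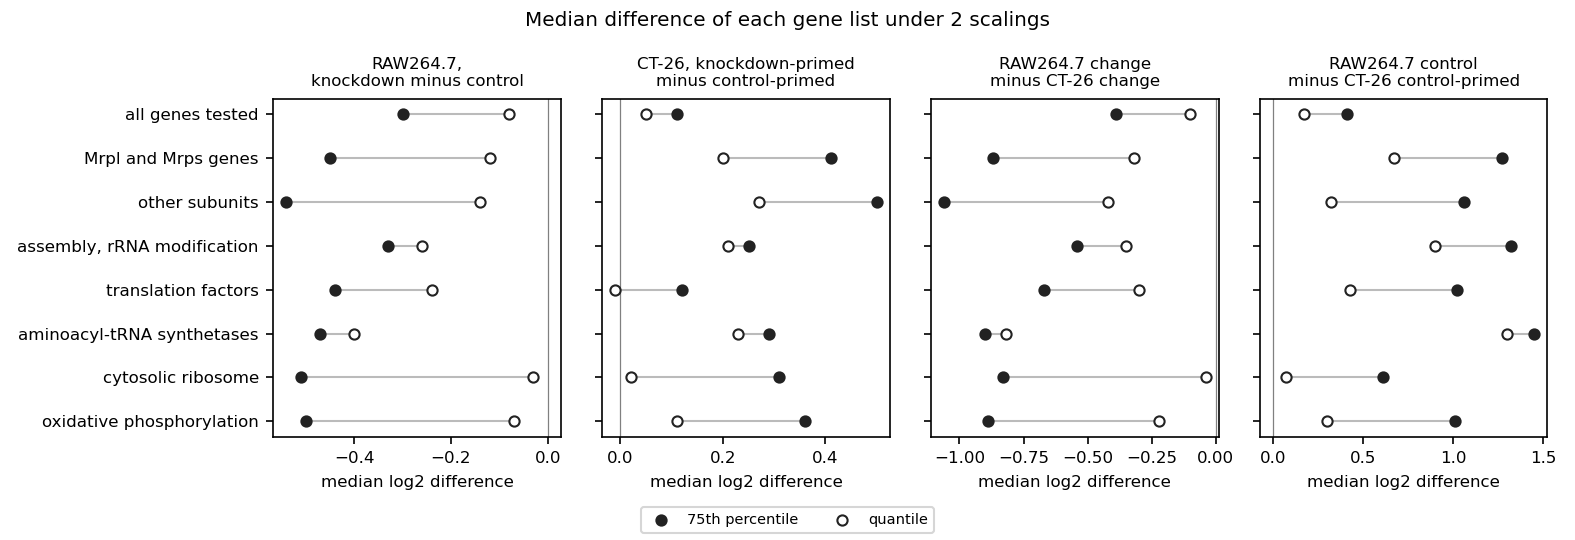
Median log2 difference (horizontal axes) of each gene list (vertical axis) in 4 comparisons, scaled by the 75th percentile (filled) and by quantile normalisation (open). The median of the 76 Mrpl and Mrps genes moves from -0.45 to -0.12 in RAW264.7 cells and from 0.41 to 0.20 in CT-26 cells, and between the control arms from 1.27 to 0.67.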

How the data were processed

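Per the labels, TRIzol RNA was linearly amplified before Cy3 labelling. Per the submitters' processing notes, the software was Agilent Feature Extraction 10.7.3.1. The deposited scanner files hold, per the file headers, the processed signal intensity of each spot and mm9 probe positions. The deposited series table holds log2 or linear values of the same arrays, used as an alternative only, since 7 of its 12 columns matched their own array and 5 another replicate of the same group. Control spots and 172 to 272 outlier spots per array were left out, and spots of a probe averaged. The file's gene names were used, and each gene was represented by its probe with the highest mean over the 12 arrays. Genes entered a test where that probe cleared the scanner's background flag in 3 of 3 arrays of a group compared (of any group for the difference of changes). Levels were log2 processed signal minus the array's 75th percentile, tested with limma 3.58.1 in R 4.3.3 on the groups compared, adjusted by Benjamini-Hochberg at 0.05. The procedure was tested on simulated data. The number of arrays limits the precision. Within-group correlation of probes was 0.974 to 0.991, and replicate numbers did not pair samples (correlations of deviations from -0.29 to 0.06).

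Genes named are Abhd5, the 8 largest rises and falls per line among those called, the 5 largest differences of change and 6 largest differences between lines in each direction, up to 3 genes per further list by smallest p, and genes whose probes disagree. The genes, lists and tests were chosen with earlier results of these data known. Alternatives were other scalings, background correction, filters, probe rules, the deposited table, slide and replicate blocks, and leaving out each array. The genes' promoter windows are RefSeq's (GRCm38.p6). Positions of probes within transcripts are not given, since no mm9 annotation was used here.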

Additional observations from a re-analysis of the deposited data

Results flagged for a closer look

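Of 26 Mrpl and Mrps genes given values in the text, 18 passed limma's test of the RAW264.7 change minus the CT-26 change (log2). The change was with Abhd5 knockdown in RAW264.7 and with knockdown priming in CT-26. Of the 76 genes 71.1% were called lower in this test, and of all genes 24% were lower and 7.44% higher. The 5 largest had been named by this same test, so their passing was fixed by the choice. Others had been named for a large change in either line, on arrays that also enter this test. Of the 22 genes called lower in RAW264.7 cells 21 passed it, and of the 6 called higher in CT-26 cells 5 did. The count of 18 is therefore not independent support. The largest differences were Mrpl36 (-1.58), Mrps24 (-1.40), Mrpl23 (-1.37), Mrps28 (-1.34), Mrpl34 (-1.32) and Mrpl48 (-1.22). Among the rest of the 18 were Mrps9 (-1.15), Mrpl55 (-1.12), Mrps5 (-1.12), Mrps36 (-1.09), Mrpl30 (-1.0), Mrps35 (-0.97) and Mrpl46 (-0.97). The others were Mrpl19 (-0.93), Mrps11 (-0.93), Mrpl49 (-0.85), Mrps18c (-0.82) and Mrps27 (-0.72). The adjusted p-values by limma ran from 9.05e-04 for Mrpl36 to 0.04 for Mrps27. After quantile normalisation 8 of the 18 were still past the threshold, the 5 largest and Mrps5 (-0.73), Mrps9 (-0.66) and Mrpl55 (-0.62). The difference for Mrps27 came with a change of -0.87 in RAW264.7 and -0.15 in CT-26, and that for Mrpl49 with -0.14 and 0.71. For the second probe of Mrpl49 the difference was -0.22 (adjusted p = 0.649 by limma over all probes).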

How the results depend on the processing

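Under quantile normalisation 3 genes fell in RAW264.7 cells (median -0.12) and 0 rose in CT-26 cells (0.20), 12 were lower in the difference of changes (-0.32), and between the lines the median was 0.67 with 1 gene lower. With median centring 2 genes fell in RAW264.7 cells, Mrps9 and Mrps27 (median -0.21), 28 were lower in the difference of changes (-0.68), and the median between the lines was 1.45. Centring also moved the calls over all genes to 9.59% higher and 5.17% lower in RAW264.7 cells, 4.34% and 2.6% in CT-26 cells, and 8.8% and 15.4% for the difference of changes. With normexp they were 6.83% and 23%, 4.7% and 2.58%, and 6.26% and 39.2%, and 11 of the 76 genes rose in CT-26 cells. Without a filter on dim probes 5 fell in RAW264.7 cells (6.58%, beside 4.22% of all genes). In CT-26 cells 0 then rose, beside 0.0717% of all genes. With each probe on its own 1 probe rose in RAW264.7 cells (Mrpl9), 2 were higher in the difference of changes (Mrpl9 and Mrps25), and 2 were lower between the lines (Mrpl39 and Mrps25). The shares of all probes called so were 7.9%, 7.35% and 28.5%. With the mean of probes 1 gene was higher in the difference of changes (Mrpl9, 0.75) and 1 lower between the lines (Mrps25, -1.50). Of all genes 7.73% and 27.1% were called so. With the slide as a block 0 fell in RAW264.7 cells, beside 1.07% of all genes. In the difference of changes 10 were lower (13.2%, beside 4.86% of all genes). On slide 2 alone the median in RAW264.7 cells was -0.44. The knockdown arms, added after the data were seen, gave 39 higher, 3 lower and a median of 0.46 between the lines. Leaving out 1 array at a time gave 0 to 20 genes lower in RAW264.7 cells, 0 to 18 higher in CT-26 cells and 34 to 55 lower in the difference of changes, the lowest without RAW knockdown replicate 3 or CT26 knockdown-primed replicate 3. Over all genes the shares called in the same runs were 2.35% to 20%, 0.125% to 7.18% and 13.5% to 29%, in that order. Every median kept its sign under every alternative run.

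Replicate numbers did not pair the samples. With the replicate block 11 genes fell in RAW264.7 cells (14.5%, beside 11.4% of all genes). In CT-26 cells 1 rose (Mrpl28, 1.32%, beside 1.12% of all genes). In the difference of changes 40 were lower (52.6%, beside 16.7%), and 72 were higher in RAW control (94.7%, beside 38%). The cause of these differences was not tested. Genes changed by less than about the spread of 3 arrays a group are not resolved here, and larger changes can be missed too. In simulated arrays where few genes were changed, a log2 change of 1 was called in 0% of them in RAW264.7 cells. The share was 29.5% in CT-26 cells and 0.5% between the lines. A change of 2 was called in 83%, 89% and 77.5%.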

Other observations

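Between the control arms, the other genes of mitochondrial translation were mostly higher in RAW264.7 cells too. Of all genes tested there, 42.3% were higher and 25.3% lower, with a median of 0.41. After quantile normalisation these shares were 36.8% and 27.9%, with a median of 0.17. Of 18 aminoacyl-tRNA synthetases 14 were higher and 0 lower by limma, with a median of 1.45, and 1.30 after quantile normalisation (14 higher and 1 lower). Of 24 assembly and rRNA modification genes 16 were higher and 0 lower, with medians of 1.32 and 0.90. Of 14 translation factors 9 were higher and 0 lower, and 7 and 1 after quantile normalisation, with Taco1, an activator of COX1 translation named after its value was seen, at 3.27 ± 0.19. Cytosolic ribosomal proteins had a median of 0.61, and 0.07 after quantile normalisation. Among the regulators, Ppargc1a (-4.95) and Myc (-4.29) were lower in RAW264.7 cells. Both were chosen here after their values were seen. The second Mrpl30 probe lies on mm9 chromosome 11 and the standing one on chromosome 1. Both fell in RAW264.7 cells in the test of each probe on its own, by -0.73 and -0.71.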
